A study of Mus musculus with 6 samples.

Results

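Neutrophil genes were followed in mouse lung through a list of 10 members, which were set by name and not by a threshold on their values. S100a8, S100a9, Csf3r, Cxcr2 and Retnlg stood for mature neutrophils, Ngp, Camp and Lcn2 for the granule genes of immature neutrophils, and Mmp9 and Il1b for effectors that neutrophils share with other cells. They are 10 of the 56262 genes in the count table, and 8 of them were among the 17120 genes with enough counts to be tested. Whole lung RNA was sequenced from 3 R/R mice and 3 WT mice, all 8 weeks old and untreated. R/R mice carry the K329R and K332R changes in the RNA-binding protein RBM47 on both alleles, made by CRISPR on the C57BL/6 background, and WT mice were littermates without them. Every cell of the R/R animal carries the changes, so a level in whole lung cannot be assigned to RBM47 in 1 cell type. Whether the lungs for RNA were flushed of blood is not given in the sources used here.

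Neutrophils mature in bone marrow in an ordered program. Genes for granule proteins such as Ngp and Camp are transcribed in immature cells and largely switched off before release, whereas S100a8, S100a9, Csf3r, Cxcr2 and Retnlg stay on in the cells that circulate and collect in the small vessels of the lung. Whole lung RNA therefore mostly reads the later program from neutrophils in its vessels and tissue, and several members have other sources too: monocytes make S100a8, S100a9 and Il1b, and airway epithelium makes Lcn2.

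C/EBP transcription factors drive this program. The promoters of 5 members are shown: the S100a8 and S100a9 pair, Retnlg, and the granule genes Lcn2 and Ngp. Each runs 5′ to 3′ on the strand of its gene, from 250 bases before to 50 bases after the start of transcription, with matches on either strand to TTGCNNAA, a core that C/EBP factors can bind, in capitals. Of the 5, all but S100a8 have a match, and the promoters of Csf3r, Cxcr2, Il1b and Camp, without one, are not printed. Sequences are from RefSeq, build GRCm38.p6.
S100a8 (chr3:90668821-90669120, plus strand): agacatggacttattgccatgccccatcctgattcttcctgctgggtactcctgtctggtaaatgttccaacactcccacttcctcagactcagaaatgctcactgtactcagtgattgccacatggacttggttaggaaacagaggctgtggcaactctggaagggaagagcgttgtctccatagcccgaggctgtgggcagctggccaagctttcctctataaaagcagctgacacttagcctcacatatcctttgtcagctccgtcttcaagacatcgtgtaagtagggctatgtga
S100a9 (chr3:90695672-90695971, minus strand): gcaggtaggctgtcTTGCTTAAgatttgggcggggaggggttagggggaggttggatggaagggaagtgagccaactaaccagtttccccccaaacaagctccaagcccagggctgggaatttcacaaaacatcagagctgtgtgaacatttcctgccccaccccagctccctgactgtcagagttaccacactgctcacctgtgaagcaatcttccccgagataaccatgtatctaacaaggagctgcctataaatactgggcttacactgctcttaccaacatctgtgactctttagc
Retnlg (chr16:48872358-48872657, plus strand): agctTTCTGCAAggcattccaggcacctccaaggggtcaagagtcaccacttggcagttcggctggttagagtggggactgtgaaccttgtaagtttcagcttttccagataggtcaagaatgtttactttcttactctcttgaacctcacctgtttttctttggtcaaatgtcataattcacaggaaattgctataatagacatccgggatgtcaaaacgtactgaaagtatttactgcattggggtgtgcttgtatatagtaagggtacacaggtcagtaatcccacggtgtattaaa
Lcn2 (chr2:32387690-32387989, minus strand): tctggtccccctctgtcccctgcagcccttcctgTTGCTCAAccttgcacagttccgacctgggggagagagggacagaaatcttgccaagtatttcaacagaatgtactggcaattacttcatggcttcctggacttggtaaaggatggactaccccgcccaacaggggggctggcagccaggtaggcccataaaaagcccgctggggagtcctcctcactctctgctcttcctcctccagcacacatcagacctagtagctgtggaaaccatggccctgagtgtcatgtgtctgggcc
Ngp (chr9:110419558-110419857, plus strand): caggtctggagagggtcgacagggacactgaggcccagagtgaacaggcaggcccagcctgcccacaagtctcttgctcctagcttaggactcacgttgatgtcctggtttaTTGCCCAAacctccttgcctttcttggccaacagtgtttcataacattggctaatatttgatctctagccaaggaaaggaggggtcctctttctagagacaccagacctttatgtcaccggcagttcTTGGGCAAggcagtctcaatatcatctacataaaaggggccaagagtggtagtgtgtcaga

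The promoter table held 9 of the 10 members, all but Mmp9, and 4 of them had the letters: S100a9 from base -236, Retnlg from base -246, Lcn2 from base -216, and Ngp from bases -138 and -11. Of all 32851 promoters of the same 300 bases, 3547 (10.8%) had at least 1 match. S100a8, Csf3r, Cxcr2, Il1b and Camp had none in this window, so S100a8 and S100a9, whose levels were alike over the lungs, differed in it. A match is a string of letters and not a measured binding site.

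Counts of read pairs were scaled to CPM, the usual unit of a gene's share of its library, and the library totals were 16501092 to 18141067 pairs. At this depth 1 pair was worth 0.0552 to 0.0607 CPM. Libraries of 1 genotype differed by more than counting noise, so each was kept as a replicate. All tested genes entered edgeR's quasi-likelihood test of R/R against WT, and a gene was called at an adjusted p under 0.05. By that rule 300 of 17120 genes (1.75%) were called. The lung label fits its markers, since the 6 alveolar type 2 markers summed to 17100 to 23000 CPM in every lung.

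All 8 tested members had a lower fitted level in R/R than in WT lungs and none of the 8 was called. Of the 8, 6 were lower at an unadjusted p under 0.05, against 7.68% of all tested genes. Counts of members called were 0 by limma-voom and 1, Retnlg, by DESeq2. The median log2 fold change of the 8 was -0.82, and that of all tested genes was 0.005. The members were selected with earlier results of these lungs known, so this count and this median describe them and are not a test. In whole tissue, fewer neutrophils and less RNA per neutrophil cannot be told apart.

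**Figure D1:**
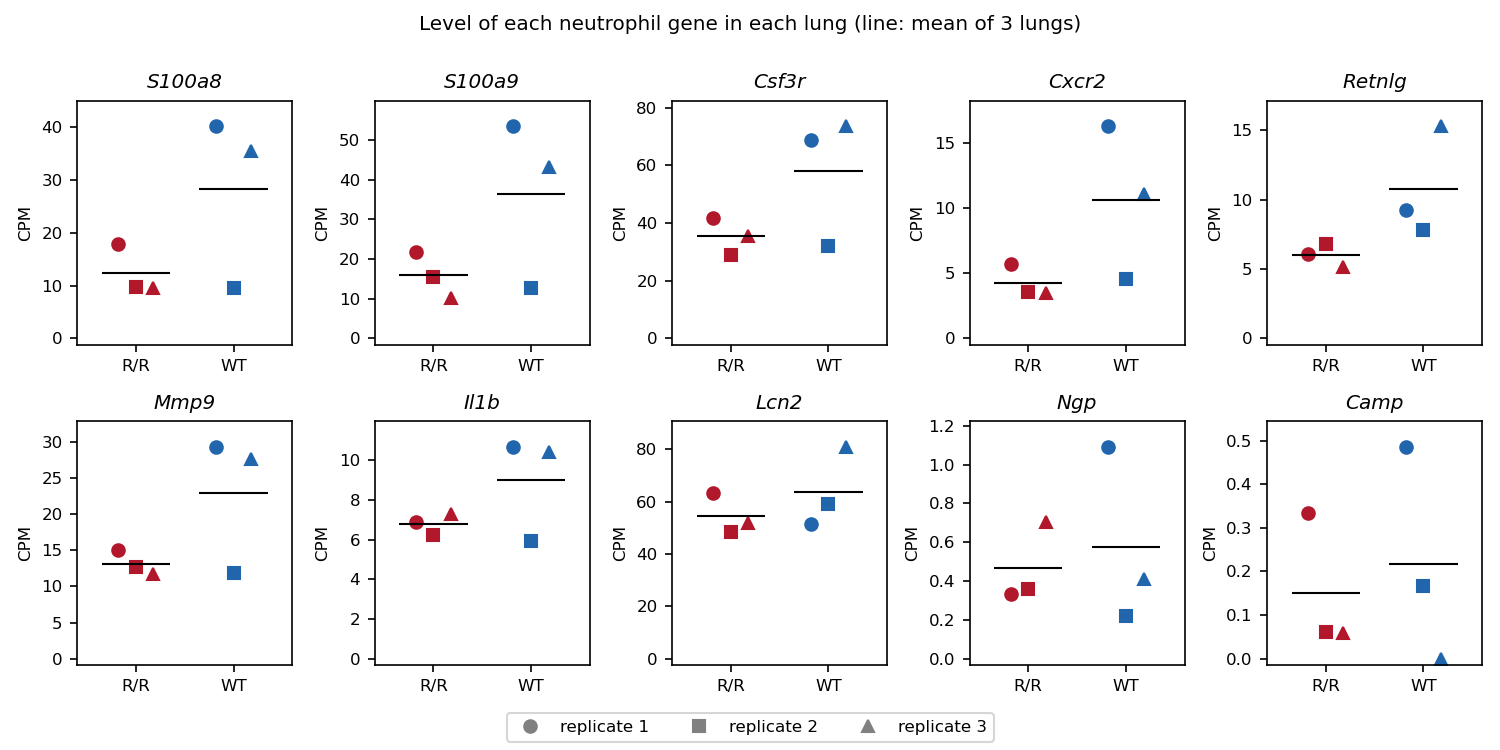
CPM (y axis, from 0, its own scale in each panel) of the 10 members in each lung of the R/R and WT groups, with 1 symbol per replicate number and a line at the mean of 3 lungs. In S100a8, S100a9, Csf3r, Cxcr2 and Mmp9, WT 1 and WT 3 lie far above all other lungs and WT 2 lies at the level of the R/R lungs.

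S100a8 and S100a9 encode the subunits of calprotectin, the calcium- and zinc-binding protein that fills much of the neutrophil cytosol. S100a8 (chr3:90668978-90670035, plus strand) stood at 17.8, 9.69 and 9.54 CPM in R/R lungs 1 to 3 and at 40.2, 9.49 and 35.5 CPM in WT lungs 1 to 3. S100a9 (chr3:90692632-90695721, minus strand) stood at 21.9, 15.4 and 10.3 CPM in the R/R lungs and at 53.4, 12.6 and 43.1 CPM in the WT lungs. In both genes WT 1 and WT 3 were the highest lungs, and the groups overlapped through WT 2, which was the lowest of the 6 for S100a8 and the second lowest for S100a9. The mean S100a8 level was 12.4 ± 4.74 CPM in R/R (SD, n = 3) and 28.4 ± 16.5 CPM in WT (SD, n = 3). S100a8 had a log2 fold change of -1.19 with an SE of 0.41 (95% interval -2.09 to -0.29, edgeR quasi-likelihood adjusted p = 0.199), and S100a9 one of -1.19 with an SE of 0.40 (-2.07 to -0.31, adjusted p = 0.191). An exact two-sided permutation test of log2 CPM gave p = 0.4 for S100a8 and p = 0.3 for S100a9, where 3 against 3 lungs cannot give less than 0.1. The highest WT lung held 4.23 times the S100a8 and 4.22 times the S100a9 of the lowest WT lung, which is more than the 2.28-fold difference fitted between genotypes for each.

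Csf3r encodes the receptor for granulocyte colony-stimulating factor, and Cxcr2 the chemokine receptor that draws neutrophils out of marrow and toward inflamed tissue. Csf3r (chr4:126024550-126044440, plus strand) stood at 41.9, 28.9 and 35.5 CPM in R/R lungs 1 to 3 and at 68.9, 31.9 and 73.5 CPM in WT lungs 1 to 3. Cxcr2 (chr1:74153989-74161246, plus strand) stood at 5.72, 3.59 and 3.48 CPM in the R/R lungs and at 16.3, 4.58 and 11.1 CPM in the WT lungs. WT 2 lay inside the R/R range in both receptors, and WT 1 and WT 3 lay above every R/R lung. The means were 35.4 ± 6.48 CPM in R/R and 58.1 ± 22.8 CPM in WT for Csf3r, and 4.26 ± 1.26 and 10.6 ± 5.86 CPM for Cxcr2 (SD, n = 3 each). The log2 fold change was -0.71 with an SE of 0.24 for Csf3r (-1.24 to -0.18, edgeR adjusted p = 0.196) and -1.31 with an SE of 0.37 for Cxcr2 (-2.12 to -0.50, edgeR adjusted p = 0.115), the largest of the 8 tested members. The exact permutation p was 0.3 for Csf3r and 0.2 for Cxcr2.

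Retnlg encodes a resistin-like protein secreted by neutrophils, and it was the only tested member whose groups did not overlap. Retnlg (chr16:48872621-48874496, plus strand) stood at 6.11, 6.82 and 5.12 CPM in R/R lungs 1 to 3 and at 9.23, 7.78 and 15.3 CPM in WT lungs 1 to 3. WT 2 was again the lowest WT lung, but it stayed above all R/R lungs, and WT 3 stood apart at the top. Its log2 fold change was -0.84 with an SE of 0.23 (-1.34 to -0.33, edgeR adjusted p = 0.108), DESeq2 gave an adjusted p of 0.0201, and the exact permutation p was 0.1, the smallest possible. Every R/R lung lay below every WT lung in 1 of 8 members and in 9.5% of all tested genes.

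Mmp9 encodes gelatinase B, a matrix protease stored in late neutrophil granules, and Il1b the inflammatory cytokine interleukin-1β. Mmp9 (chr2:164940780-164955850, plus strand) stood at 15.1, 12.7 and 11.7 CPM in R/R lungs 1 to 3 and at 29.4, 11.9 and 27.7 CPM in WT lungs 1 to 3. It repeated the order of the mature genes, with WT 2 inside the R/R range, and had a log2 fold change of -0.80 with an SE of 0.26 (-1.37 to -0.23, edgeR adjusted p = 0.175) and an exact permutation p of 0.3. Il1b (chr2:129364570-129371139, minus strand) stood at 6.88, 6.22 and 7.30 CPM in the R/R lungs and at 10.7, 5.91 and 10.4 CPM in the WT lungs. WT 1 and WT 3 were again the highest and WT 2 the lowest of the 6. Its log2 fold change of -0.40 had a 95% interval of -0.86 to 0.05 (edgeR adjusted p = 0.426), so the interval included both no difference and a fall as large as that fitted for Retnlg. Of its exon bases 1.31% are shared with the antisense gene Il1bos, and counting did not use strand.

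Lcn2 did not show this order. It encodes lipocalin 2, a siderophore-binding protein of neutrophil granules and airway epithelium. Lcn2 (chr2:32384633-32388252, minus strand) stood at 63.2, 48.5 and 51.8 CPM in R/R lungs 1 to 3 and at 51.4, 59.1 and 81.0 CPM in WT lungs 1 to 3. WT 1, the highest lung for S100a8, S100a9 and Cxcr2, was the second lowest for Lcn2, and the groups overlapped, with a log2 fold change of -0.23 (-0.54 to 0.09, SE 0.14, edgeR adjusted p = 0.537, exact permutation p = 0.6). WT 3, highest for Lcn2, was also highest for the airway secretory markers Scgb3a1, at 33.3 CPM against 1.38 to 5.16 in the other lungs, and Muc5b, at 23.5 CPM against 0.555 to 4.06. In all, WT 3 was the highest lung for 4 of 6 airway secretory markers, but their sum, carried by Scgb1a1, was highest in R/R 2 and R/R 3, at 16050 and 15630 CPM against 14980 CPM in WT 3. The part of airway cells in the Lcn2 level was not tested.

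Ngp and Camp, which encode neutrophilic granule protein and the antimicrobial cathelicidin, were near the counting floor and too low to test. Ngp (chr9:110419747-110423012, plus strand) had 6, 6 and 12 read pairs in the R/R lungs and 18, 4 and 7 in the WT lungs. Camp (chr9:109847379-109849617, minus strand) had 6, 1 and 1 read pairs in the R/R lungs and 8, 3 and 0 in the WT lungs. WT 1 was the highest lung for both, and the groups overlapped in both. Summed over 3 lungs a genotype, the R/R to WT ratio was 0.827 (0.461 to 1.47) for Ngp and 0.726 (0.254 to 1.98) for Camp, with 95% intervals that cover counting error only. A difference of the size fitted for S100a8, a ratio of 0.439, lay outside the Ngp interval and inside the Camp interval. The Ngp interval leaves out the spread between lungs, 4.95-fold among WT lungs, so this does not set Ngp apart from S100a8. The 0 in WT 3 allows up to 3 pairs, or 0.176 CPM.

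**Figure D2:**
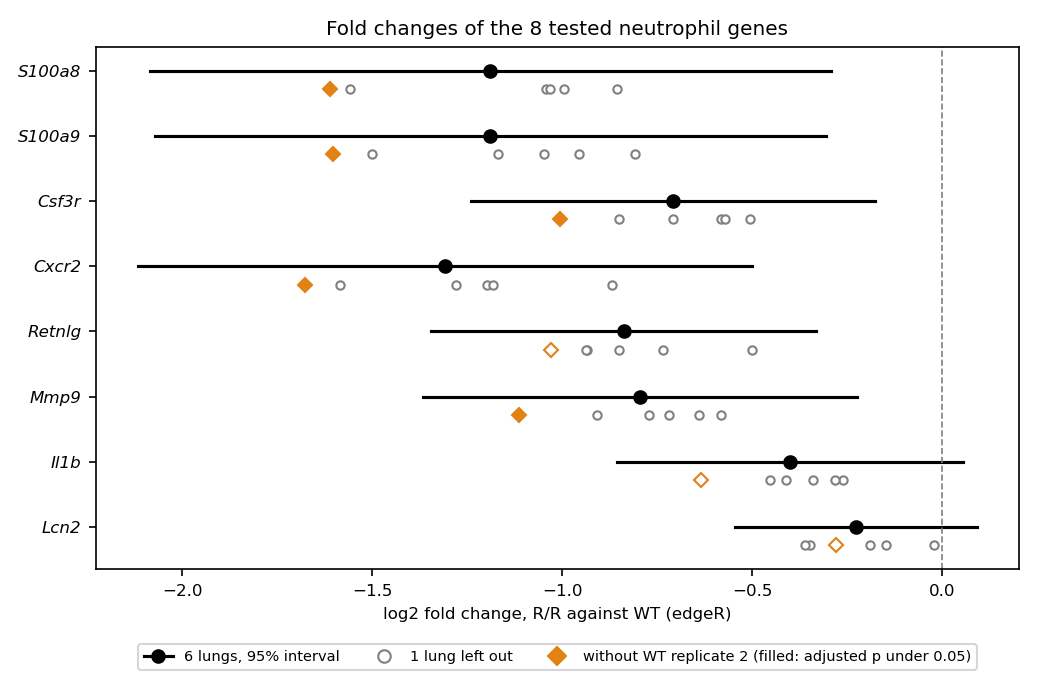
Log2 fold change of R/R against WT from edgeR (x axis) for the 8 tested members, with the 95% interval of the fit on 6 lungs in black and the values with 1 lung left out below it. All points lie below 0, and the fit without WT 2 (diamonds) gives the most negative value in 7 of 8 members and an adjusted p under 0.05 in 5.

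The calls depended on WT replicate 2. WT 1 and WT 3 lay above every R/R lung in 7 of the 8 tested members, all but Lcn2, against 13.7% of all tested genes. In 6 of the 8, WT 2 did not, a pattern found in 4.21% of all tested genes. Without WT 2, S100a8 (log2 fold change -1.61, edgeR adjusted p = 0.00758), S100a9 (-1.60, 0.00847), Csf3r (-1.01, 0.00601), Cxcr2 (-1.68, 0.0104) and Mmp9 (-1.11, 0.00385) passed the threshold, while the count of all genes called went from 300 to 110. Leaving out any other lung called no member, and all 8 fold changes stayed below 0 in each of these 6 fits. Lcn2 came closest to 0, at -0.02. Nothing in the labels sets WT 2 apart, so the values with all 6 lungs are the ones reported.

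The 5 mature genes summed to 93.4, 64.4 and 63.9 CPM in R/R lungs 1 to 3 and to 188, 66.4 and 178 CPM in WT lungs 1 to 3. R/R 1 was thus the highest R/R lung, as it was in 6 of the 8 tested members taken singly. The spread within a genotype was large for such genes: the biological dispersion of S100a8 lay at percentile 99.0 of all tested genes, that of S100a9 at 98.9 and of Cxcr2 at 98.0, and the lowest among the 8 was that of Lcn2 at 66.0.

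Levels can be compared between genes once divided by exon length. Per kilobase, the means over the 6 lungs ran from 50 CPM for S100a9 through 29.3 for S100a8, 22.6 for Lcn2, 14.1 for Retnlg, 13 for Csf3r, 5.11 for Mmp9, 4.14 for Il1b and 2.44 for Cxcr2 to 0.426 for Ngp and 0.243 for Camp. S100a9 stood above S100a8 in 6 of 6 lungs. S100a8 and Lcn2 changed places, with S100a8 higher in 3 of 6 lungs, and so did Retnlg and Csf3r, with Retnlg higher in 3 of 6. The order of Mmp9 over Il1b held in 5 of 6 lungs and that of Ngp over Camp in 4 of 6, whereas the other neighbours kept their order in 6 of 6.

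Over the 6 lungs, S100a8, S100a9, Csf3r, Cxcr2 and Mmp9 were tightly alike, with Pearson's r between 0.924 and 0.985 for every pair on log2 CPM. Il1b correlated with these 5 at 0.878 to 0.965 and Retnlg at 0.734 to 0.794. Lcn2 correlated with the other 7 tested members at 0.374 to 0.702, the highest with Retnlg. These coefficients describe 6 points, of which WT 1 and WT 3 carry most of the spread, and the points share a genotype difference. Of 1571 other genes, those whose log2 CPM averaged 1 or more with an SD of 0.3 or more, 1.46% had r above 0.9 with the mean profile of the 5 mature genes.

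The 10 genes most like that profile were Ccr1 (r = 0.991), Lck (0.98), Trim30b (0.967), Nlrp12 (0.965), Hcst (0.962), Ccl5 (0.96), H2-Q10 (0.955), Pla2g7 (0.954), Nlrp3 (0.95) and Mmp8 (0.947). Ccr1 is a chemokine receptor of neutrophils and monocytes and Mmp8 the neutrophil collagenase, but Lck is a kinase of T cells and Ccl5 a chemokine made largely by T and NK cells. None of the 10 was called by edgeR or limma-voom, and DESeq2 called 3, Trim30b, H2-Q10 and Mmp8. Of the 10, 8 were lower at an unadjusted p under 0.05 in edgeR, against 7.68% of all tested genes. In 4 of them, Lck, Trim30b, Hcst and Mmp8, every R/R lung lay below every WT lung, against 9.5% of all tested genes. The 10 were picked for likeness to a profile that was high in WT 1 and WT 3. These counts follow from that choice and are not a test. Without WT 1 and WT 3, r stayed at 0.947 for Ccr1 and 0.943 for Nlrp12 but was 0.446 for Nlrp3 and 0.242 for Mmp8. Among the members outside the profile, Mmp9 had r = 0.993 and 0.927 without those lungs, whereas Il1b went from 0.919 to -0.01 and Lcn2 from 0.498 to 0.801.

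**Figure D3:**
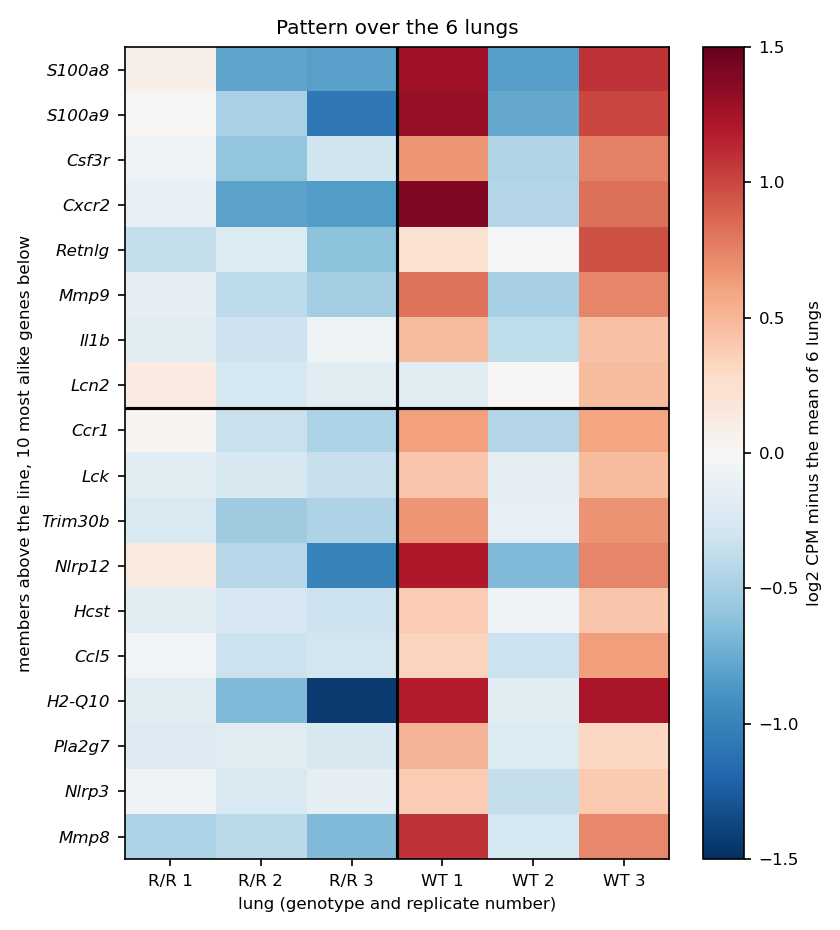
Log2 CPM minus the mean of 6 lungs (colour, red above and blue below) for the 8 tested members and the 10 genes most like the mature profile, with 1 column per lung. WT 1 and WT 3 are red in nearly all genes, WT 2 is blue or pale, and Lcn2 differs from the other members in WT 1.

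Beyond the members, 117 further genes tied to neutrophils were gathered in 7 lists by function, and 96 of them were tested. Of the 96, 3 were called higher and 2 lower in R/R, against 1.75% of all tested genes in either direction. At an unadjusted p under 0.05, 17 were lower and 11 higher, against 7.68% and 6.54% of all tested genes, and the median log2 fold change was -0.01. The order with WT 1 and WT 3 above every R/R lung and WT 2 not was found in 13 of the 96, against 4.21% of all tested genes.

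Other mature neutrophil genes had the lowest median log2 fold change of the 7 lists, at -0.24, with 19 of 24 tested below 0. Short of the threshold, Clec4e, a receptor for mycobacterial glycolipid, had -1.04 (edgeR adjusted p = 0.0685) and Ifitm6 had -0.86 (0.0789), and DESeq2 called both. In both, every R/R lung lay below every WT lung, as in 9.5% of all tested genes. The most abundant of the list per kilobase, G0s2, Lrg1 and Msrb1, had log2 fold changes of -0.01, -0.14 and -0.02.

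Fpr1, the receptor for bacterial formyl peptides, lay the other way. It stood at 16.2, 13.8 and 17.0 CPM in R/R lungs 1 to 3 and at 10.02, 10.3 and 12.5 CPM in WT lungs 1 to 3, with every R/R lung above every WT lung, as in 9.17% of all tested genes. Its log2 fold change was 0.52 with an SE of 0.13 (edgeR adjusted p = 0.0673), and it passed with DESeq2 (adjusted p = 0.0319) and without WT 3 (0.0227). Macrophages also express Fpr1, and the summed alveolar macrophage markers were likewise higher in R/R, at 931 to 1050 CPM against 652 to 841. That sum was carried by Chil3, at 583 to 665 CPM against 340 to 489. Without Chil3 the other 9 markers summed to 387, 349 and 360 CPM in the R/R lungs and to 323, 312 and 353 CPM in the WT lungs, and the groups overlapped. Taken singly, 8 of the 10 alveolar macrophage markers had a higher fitted level in R/R and 2 a lower one. Of the 10, 6 were higher at an unadjusted p under 0.05 in edgeR, against 6.54% of all tested genes. In 5, every R/R lung lay above every WT lung. Car4, with means of 137 CPM in R/R and 147 CPM in WT, held the largest part of the sum without Chil3. The part of macrophages in the Fpr1 level was not tested.

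Ly6g, the surface antigen by which mouse neutrophils are usually gated, was too low to test, with 1, 0 and 1 read pairs in the R/R lungs and 6, 1 and 3 in the WT lungs. The summed ratio was 0.2, with a counting interval of 0.0213 to 0.937 that leaves out the spread between lungs. WT 1 was again highest, and WT 2 overlapped the R/R lungs.

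Granule and NADPH oxidase genes had no call by edgeR or limma-voom among 14 tested, with a median of -0.20. At an unadjusted p under 0.05 in edgeR, 4 were lower and 0 higher, against 7.68% and 6.54% of all tested genes. DESeq2 called 1, Mmp8, the collagenase of specific granules, which had a log2 fold change of -1.12 (edgeR adjusted p = 0.105) and stood at 2.28, 2.39 and 2.003 CPM in the R/R lungs and 6.74, 2.65 and 5.21 CPM in the WT lungs. Without WT 2 its edgeR adjusted p was 0.0249. Ncf4, a cytosolic oxidase subunit, had -0.47 (adjusted p = 0.0672), whereas the abundant subunits Cybb, Cyba and Ncf1, which macrophages also use, had 0.00, 0.05 and -0.13. Among genes of the earliest neutrophils, Mpo had at most 2 read pairs in any lung, Elane 1, Ctsg 2 and Ms4a3 1. Prtn3, proteinase 3 of the primary granules, was higher, with 6, 10 and 12 pairs in the R/R lungs and 12, 9 and 17 in the WT lungs, and had a log2 fold change of -0.44 (edgeR adjusted p = 0.723).

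Among transcription and growth factors of granulopoiesis, 2 of 9 tested were called, both higher, against 1.75% of all tested genes in either direction. Cebpb and Cebpd encode C/EBPβ and C/EBPδ, which also act in macrophages and epithelium. Cebpd stood at 70.9, 133 and 94.2 CPM in R/R lungs 1 to 3 and at 60.1, 57.6 and 59.9 CPM in WT lungs 1 to 3, and Cebpb at 112, 131 and 128 CPM against 104, 94.3 and 99.9 CPM. In both, every R/R lung lay above every WT lung, as in 9.17% of all tested genes. Cebpd rose by 0.75 on the log2 scale (SE 0.17, edgeR adjusted p = 0.0486) and Cebpb by 0.32 (SE 0.07, adjusted p = 0.0491). Cebpd lost the call without R/R 2, R/R 3, WT 1 or WT 2 (adjusted p between 0.101 and 0.156), and Cebpb without any lung but R/R 1 (0.054 to 0.191). DESeq2 did not call Cebpd (adjusted p = 0.107), and limma-voom called neither (0.0751 for Cebpd and 0.0563 for Cebpb). Both were lost with a filter of 1 CPM in 3 libraries (0.0534 and 0.051), Cebpd also with robust dispersion (0.307), and Cebpb also with the replicate block (0.0517). The other 2 most abundant of the list, Cebpa and Csf2ra, had 0.13 and -0.03, and Csf3, the ligand of Csf3r, had 0, 2 and 0 read pairs in the R/R lungs and 1, 1 and 0 in the WT lungs.

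Ligands and trafficking molecules of Cxcr2-bearing cells were led in level by Cxcl15, lungkine, which lung epithelium secretes. Cxcl15 stood at 1346, 1329 and 1314 CPM in the R/R lungs and at 1067, 1374 and 1510 CPM in the WT lungs, with a log2 fold change of 0.01 (SE 0.11, edgeR adjusted p = 0.976). The inducible ligands Cxcl2, Cxcl3 and Cxcl5 had at most 7 read pairs in any lung, and Cxcl1 had 14, 10 and 11 in the R/R lungs and 0, 8 and 8 in the WT lungs (edgeR adjusted p = 0.469). Cxcl12, the retention signal read by the other neutrophil chemokine receptor Cxcr4, was the only 1 of 15 tested that edgeR called. The share over all tested genes was 1.75%. DESeq2 called Itgal, an integrin subunit of leukocytes, as well (edgeR log2 fold change -0.36, adjusted p = 0.0786). Cxcl12 was lower in every R/R lung than in every WT lung, as were 9.5% of all tested genes. It stood at 319, 402 and 334 CPM in R/R lungs 1 to 3 and at 660, 613 and 488 CPM in WT lungs 1 to 3, and fell by 0.74 on the log2 scale (SE 0.11, edgeR adjusted p = 0.0104), a call that held with any 1 lung left out. Icam1, the endothelial and epithelial adhesion ligand, had 0.14 (adjusted p = 0.273) with every R/R lung above every WT lung.

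None of the listed partners of the secreted members was called by edgeR. None of 12 interleukin-1 pathway genes was called by edgeR, DESeq2 or limma-voom, and 1 was past an unadjusted p of 0.05, with a median of 0.02. The receptor Il1r1 had a log2 fold change of 0.01, Gsdmd, the pore through which interleukin-1β leaves the cell, -0.03, and the adaptor Myd88 0.07. None of 13 receptors and protease inhibitors was called by edgeR or limma-voom and 1, Timp3, by DESeq2, with 3 past an unadjusted p of 0.05 in edgeR. The abundant Ager and Bsg, which bind S100 proteins, and Timp2 had log2 fold changes of 0.02, 0.05 and 0.04.

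Of genes linked to myeloid-derived suppressor cells, a class of immature myeloid cells that includes Ly6G-bearing cells, 1 of 9 tested was called. Of all tested genes 1.75% were called. Ptgs2, the inducible cyclooxygenase, which epithelium and macrophages also express, stood at 14.4, 22.0 and 21.3 CPM in R/R lungs 1 to 3 and at 7.77, 10.3 and 12.8 CPM in WT lungs 1 to 3. It rose by 0.90 on the log2 scale (SE 0.19, edgeR adjusted p = 0.039), and lost the call without R/R 2, R/R 3, WT 1 or WT 2 (adjusted p between 0.113 and 0.163) and with limma-voom (0.0522) or robust dispersion (0.0691). The most abundant of this list, Wfdc17, Il4ra and Cd274, had -0.06, -0.07 and 0.17.

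**Figure D4:**
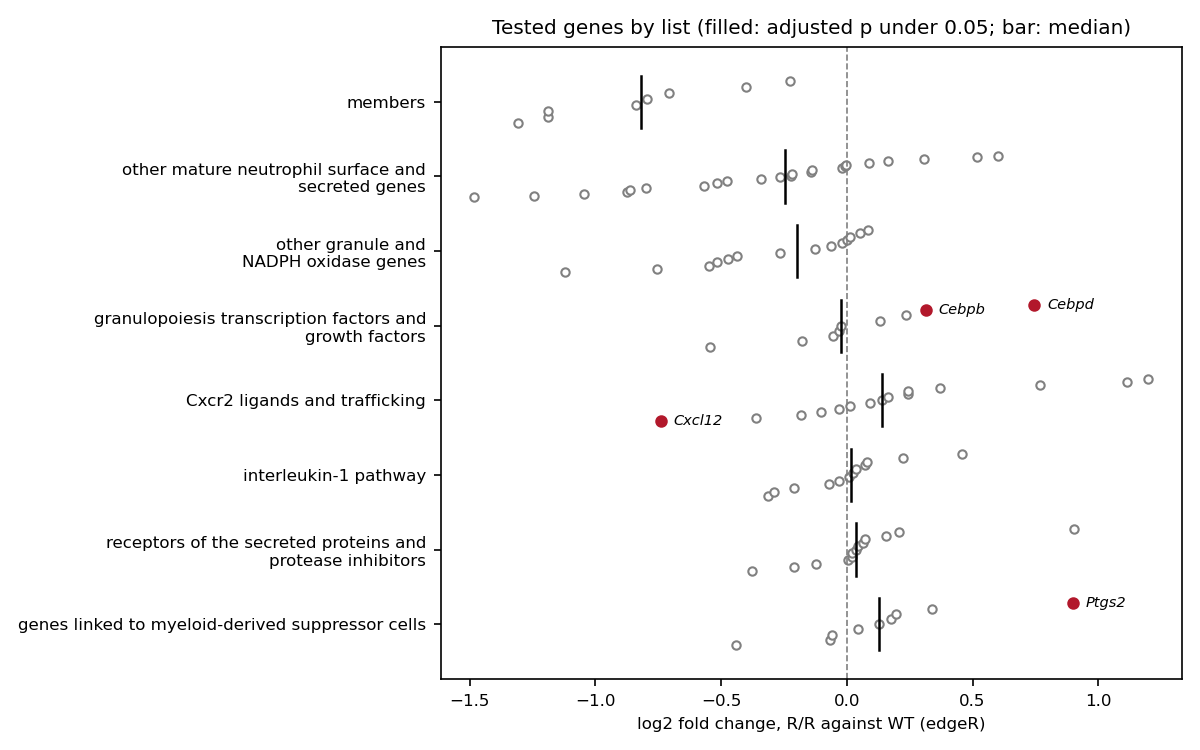
Log2 fold change of R/R against WT (x axis) of each tested gene, in rows by list, with the genes reported as called at an adjusted p under 0.05 filled and named and a bar at each list's median. The members lie wholly below 0 with a median of -0.82, whereas the medians of the other 7 lists lie between -0.24 and 0.14.

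Markers of other cells were set beside the members to see which moved in the same lungs. Of 6 B cell markers 4 were called lower, against 1.75% of all tested genes called in either direction. Their sum was 80 to 112 CPM in R/R and 152 to 191 CPM in WT. Summed T cell markers were at 26.6 to 34.1 CPM in R/R and 40.8 to 55.6 CPM in WT. Of the 7, 0 were called by edgeR or limma-voom and 2 by DESeq2. In edgeR 4 were lower at an unadjusted p under 0.05, against 7.68% of all tested genes. Cycling cell markers summed to 39 to 48.3 CPM in R/R and 57.1 to 77 CPM in WT, with 2 of 6 called lower. In these 3 lists WT 2 stood with the other WT lungs and not with the R/R lungs.

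Erythroid markers, a reading of blood left in the lung, summed to 1175, 1721 and 2220 CPM in R/R lungs 1 to 3 and to 2627, 3221 and 2425 CPM in WT lungs 1 to 3. All 6 tested were lower in R/R at an unadjusted p under 0.05 in edgeR, against 7.68% of all tested genes. Hba-a1 was called (log2 fold change -0.78, edgeR adjusted p = 0.0478), though not by DESeq2. Among the R/R lungs their order was the reverse of that of the mature neutrophil sum, with R/R 1 lowest for erythroid markers and highest for the mature sum. Among the WT lungs the reversal was partial. WT 2 was the highest WT lung for erythroid markers and the lowest for the mature sum, but WT 1 stood above WT 3 in both. The part of residual blood in the difference between genotypes was not tested.

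By sum, WT 2 was the lowest of the 6 lungs in 3 of 18 marker lists, those of NK cells, alveolar macrophages and airway secretory cells. NK cell markers stood at 17.1 CPM in WT 2, at 40.0 and 26.8 CPM in WT 1 and WT 3 and at 27.0 to 35.6 CPM in the R/R lungs, so WT 3 was not high there as it was for the mature neutrophil genes. None of the 6 NK markers was called by edgeR, DESeq2 or limma-voom or past an unadjusted p of 0.05 in edgeR. Of 7 classical monocyte markers, 5 had WT 2 as the lowest WT lung, and 1, the chemokine receptor Ccr2, had the order of most members. Ccr2 stood at 40.2, 32.3 and 35.5 CPM in R/R lungs 1 to 3 and at 42.0, 39.7 and 53.3 CPM in WT lungs 1 to 3, with WT 2 inside the R/R range. Of these 7 markers 5 had a lower and 2 a higher fitted level in R/R. Chil3, also in this list, was called higher (log2 fold change 0.68, edgeR adjusted p = 0.0233). Of 7 patrolling monocyte markers, 5 were lower and 2 higher, and 1 had the order of most members. Adgre4 was called lower (-0.62, edgeR adjusted p = 0.0341) and Nr4a1 higher (0.76, 0.0148), against 1.75% of all tested genes called. The part of monocytes in the neutrophil levels was not tested.

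The stress-hormone target Zbtb16, 1 of 8 listed glucocorticoid-induced genes, was looked up after its values were seen. It was high in the same WT lungs and in R/R 1. Zbtb16 stood at 53.4, 17.8 and 14.2 CPM in the R/R lungs and 56.0, 15.6 and 67.2 CPM in the WT lungs. Its r to the mature profile was 0.893. Fkbp5 and Tsc22d3, further glucocorticoid targets, had r = 0.491 and -0.3. Per1 and Errfi1 were instead highest in R/R 2, at 149 and 243 CPM. WT 1 and WT 3 lay above every R/R lung and WT 2 did not in 2 of the 8, Zbtb16 and Pdk4. Of the 8, 4 had a higher and 4 a lower fitted level in R/R, and none was called. The part of these genes in the neutrophil levels was not tested.

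**Figure D5:**
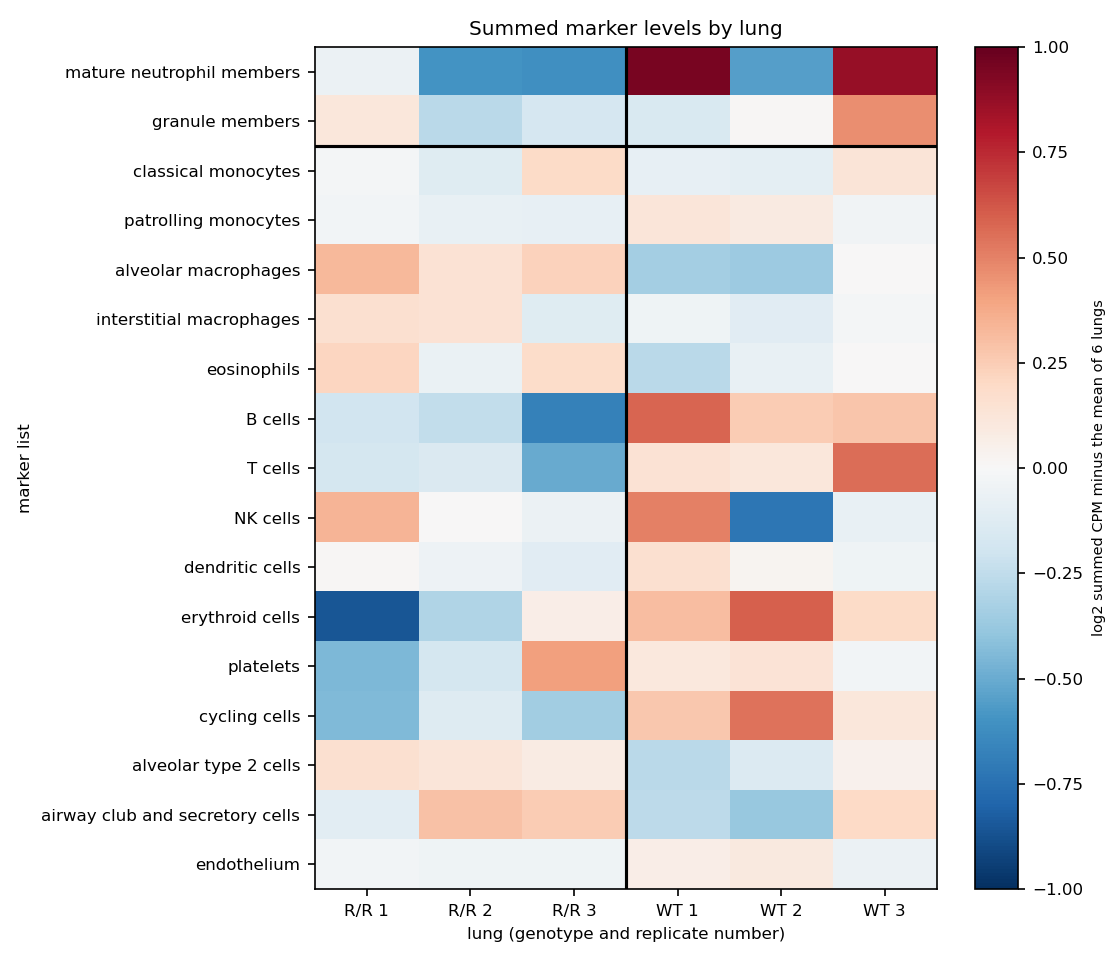
Log2 of the summed CPM of each marker list minus its mean over 6 lungs (colour, red above and blue below), with 1 column per lung and the neutrophil members in the top rows. The mature neutrophil row is red in WT 1 and WT 3 and blue in WT 2, whereas B cell, T cell, erythroid and cycling rows are red or pale in every WT lung.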

How the data were processed

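RNA from 3 R/R and 3 WT lungs was sequenced as paired reads. Per the submitters' processing notes reads were aligned to mm10 (GRCm38) with HISAT2 2.1.0, and the authors deposited a table of raw counts, in read pairs, made by featureCounts 2.0.1 with GENCODE release 25, with neither normalization nor strand, and without pairs that map to several places. One deposited column was entered in the records as an estimated count because of how its header line reads. Its values are whole-number counts that the authors made like the rest, and none was rounded. The sources name DESeq2 and edgeR for the authors' tests.

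Here CPM used TMM-scaled library sizes, which hold 16501092 to 18141067 counts before scaling. R/R was compared with WT in edgeR 4.0.16 (R 4.3.3, filterByExpr, quasi-likelihood test, Benjamini-Hochberg adjustment over 17120 genes). For single members, log2 CPM (prior count 0.5) was compared by exact permutation, two-sided. Alternatives were DESeq2 1.42.0, limma-voom (limma 3.58.1), other scalings and filters, robust dispersion, a replicate block and leaving out each lung. Intervals and floors from counts cover counting error only. The supplement calls the lungs biological replicates. Code was tested on simulated counts.

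The members and lists were chosen with earlier results of these data known. Named genes were the members, called genes and the 3 most abundant of each list, and the 10 genes most like the mature profile. Ly6g, Fpr1, Clec4e, Ifitm6, Ncf4, Csf3, the genes of the earliest neutrophils, Itgal and the Cxcr2 ligands were named after their values were seen. So were Sele, Selp, Il18, Timp1, Timp3, P2rx7 and the marker genes. A gene of the lists is not reported here and not drawn, but enters its list's counts and median.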

Additional observations from a re-analysis of the deposited data

How the results depend on the processing

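No member changed direction in any alternative. The number of the 10 members called was 0 with limma-voom, with library size alone, with upper-quartile factors, with DESeq2's size factors, with a filter of 1 CPM in 3 libraries and with robust dispersion. It was 1 with DESeq2 and 6 with no filter beyond 1 count. With 1 lung left out it ranged from 0 to 5. With no filter the fit estimated infinite prior degrees of freedom, against 7.66, and the quasi-dispersion of S100a8 went from 10.7 to 0.766, so its own spread between lungs no longer entered its test. All genes called went from 300 to 529 with DESeq2 and 1109 with no filter, and ranged from 65 without WT 1 to 621 without WT 3. Further neutrophil genes called went from 5 to 11 with DESeq2, 2 with limma-voom, 22 with no filter, 3 with the 1 CPM filter and 3 with robust dispersion, and ranged from 1 to 7 with 1 lung left out. Cybb turned to -0.002 with limma-voom and ranged from -0.072 to 0.082 with 1 lung left out, and Cxcl15 ranged from -0.12 to 0.12, all uncalled. The causes of these shifts were not tested.

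Nothing in the labels pairs the lungs by replicate number. Deviations of same-numbered lungs correlated at -0.014, -0.003 and -0.015 across genes, and those of lungs with different numbers at -0.023 to 0.032. With 3 lungs a genotype this cannot decide whether the numbers pair lungs. With the replicate block, 3 members were called, S100a8 (adjusted p = 0.0383), Csf3r (0.0244) and Cxcr2 (0.0166), with 446 genes in all and 8 further neutrophil genes, and Cybb was at -0.003. Ngp and Camp had too few counts to show any but a large difference.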
